A study of Mus musculus with 20 samples.

Results

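The 10 genes that encode transcription factors of fat cells described here were taken from the deposited expression table by symbol and are Pparg, Ppara, Cebpa, Cebpb, Cebpd, Rxra, Klf15, Esrra, Nr1h3 and Ebf1. All 10 were found among its 25219 genes, and all 10 passed the filter on low counts in every comparison, with between 139 and 33402 counts in any library. RNA came from inguinal white adipose tissue (iWAT) and interscapular brown adipose tissue (BAT) of male mice on a mixed C57Bl/6 background, and each tissue had 5 libraries from Control and 5 from Ai-α4KO mice. The labels do not say whether libraries came from separate mice or whether both tissues came from 1 mouse, so p-values measure the spread between libraries. Ai-α4KO mice carried a floxed allele of Igbp1, the gene of the phosphatase regulator α4, together with Adiponectin-CreERT2, a tamoxifen-inducible recombinase driven by the adiponectin promoter and so restricted to adipocytes. Control mice carried the floxed alleles without the Cre transgene, although the labels call them WT. Mice of both genotypes received 5 injections of tamoxifen at 100 mg/kg over 6 days from 2 months of age, and tissue was taken 1 week after recombination. Only adipocytes could lose α4, so RNA from the other cells of the tissue was read together with theirs.

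These factors form the network that makes and maintains a fat cell. C/EBPβ and C/EBPδ act early in adipogenesis and also drive acute phase and cytokine genes in inflammation. They induce PPARγ and C/EBPα, which then sustain each other and switch on the genes of the mature adipocyte. PPARγ, the related PPARα and LXRα (the product of Nr1h3) bind DNA as heterodimers with RXRα, while ERRα (Esrra) governs mitochondrial genes, KLF15 governs amino acid and glucose handling and EBF1 opens adipocyte enhancers.

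Totals ran from 24023371 to 50384446 counts per library. Igbp1 was lower in every Ai-α4KO library than in every Control library of its tissue, and its log2 fold change was -2.65 for iWAT and -2.50 for BAT. Summed CPM (counts per library size, with sizes adjusted by TMM over all genes) of 6 brown adipocyte markers was between 8300 and 12696 in Control BAT and between 134 and 994 in Control iWAT, against 1547 to 3589 in Ai-α4KO BAT and 17.3 to 38.9 in Ai-α4KO iWAT, and 2 of the 6 were called lower in BAT (median log2 fold change -1.14) and 5 in iWAT (-3.08). The summed CPM of 12 adipocyte markers was between 35729 and 47471 in Control iWAT and between 13322 and 19222 in Ai-α4KO iWAT, and it was between 35552 and 38411 in Control BAT and between 15077 and 18748 in Ai-α4KO BAT. In bulk tissue, fewer adipocytes and less RNA of these genes per adipocyte cannot be told apart. All 9 macrophage markers were higher in Ai-α4KO tissue, and their sum went from 1292 to 2214 in Control to 8108 to 10816 in iWAT and from 255 to 581 in Control to 4666 to 7644 in BAT. Of 6 endothelial markers, 3 were lower in iWAT and 4 in BAT, and their sum was between 389 and 520 CPM in Control iWAT and 225 and 273 in Ai-α4KO iWAT, and between 706 and 994 in Control BAT and 282 and 376 in Ai-α4KO BAT. The part of these cells in the levels of the factors that were lower was not tested. Some libraries stood apart. B cell markers summed to 385 CPM in Control iWAT library 1 and 154 in library 4, against 5.16 to 6.86 in the other Control iWAT libraries. Skeletal muscle markers summed to 7329 CPM in Control iWAT library 4 and 5267 in Ai-α4KO iWAT library 1, against at most 183 in the other iWAT libraries, and to 13369 to 45450 in Ai-α4KO BAT against 951 to 9543 in Control BAT.

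Genes were tested with the quasi-likelihood test of edgeR, p-values were adjusted over all tested genes (Benjamini-Hochberg), and a gene was counted as lower or higher where its level differed at least 2-fold and the adjusted p was under 0.01. In iWAT 5 of the 10 factors were lower by this rule (Pparg, Ppara, Cebpa, Rxra and Klf15), 1 was higher (Cebpb) and 4 were not called, where 10.7% of all genes tested were lower and 11.3% were higher. In BAT 6 were lower (Pparg, Ppara, Cebpa, Klf15, Esrra and Ebf1), 1 was higher (Cebpd) and 3 were not called, against 13.3% of all genes lower and 18.2% higher. Libraries of the 2 genotypes did not overlap for 9 factors in iWAT and 8 in BAT, where this held for 39% and 47.6% of all genes. Over the 10 factors the log2 fold changes had a median of -1.01 for iWAT and -1.33 for BAT, where the median of all genes was 0.01 and -0.03. These directions hold with libraries scaled to all genes, and scaling to adipocyte markers, given further on, removed every call of a lower level. On that scale few genes of any kind were lower, 0.582% of all genes in iWAT and 0.495% in BAT. Without Control iWAT libraries 1 and 4 and Ai-α4KO iWAT library 1, 6 factors were lower and 1 was higher in iWAT.

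**Figure D1:**
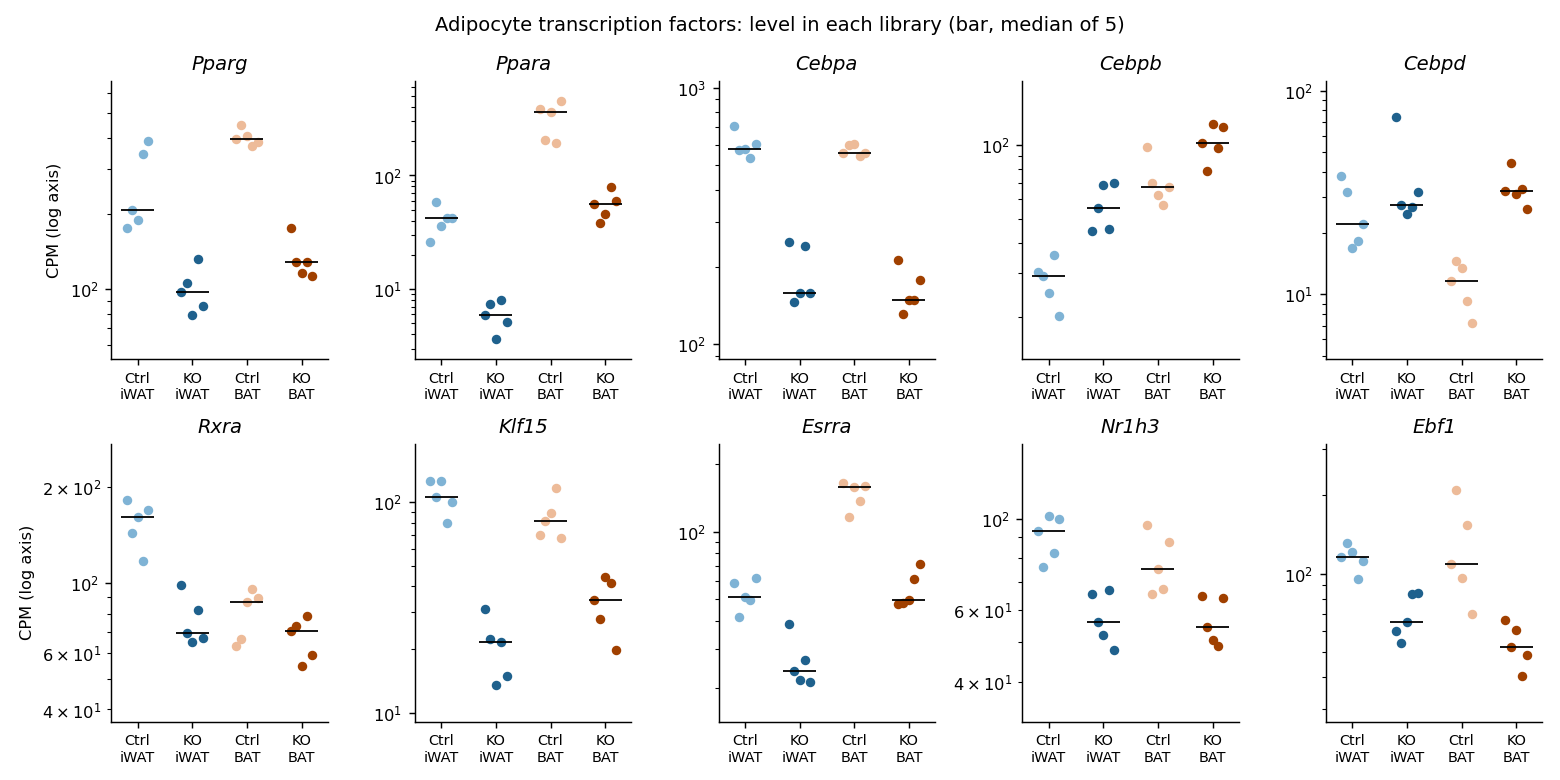
CPM of each of the 10 factors on a log axis in the 4 groups, with 1 point per library and a bar at the median of 5 libraries (Ctrl, Control; KO, Ai-α4KO; CPM scaled to all genes). Ppara, Cebpa and Klf15 sit lower in all Ai-α4KO libraries than in the Control libraries of the same tissue, while Cebpd stands higher in all Ai-α4KO BAT libraries and overlaps in iWAT.

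PPARγ is the receptor without which fat cells neither form nor persist. Pparg (Entrez 19016) lies on the forward strand of chromosome 6 from 115361221 to 115490401 in the table, which uses mm10. Its 5 Control iWAT libraries held 175, 206, 189, 344 and 387 CPM and its Ai-α4KO iWAT libraries held 97.7, 106, 79.3, 132 and 86.2 CPM. Control libraries 4 and 5 were the highest, and no Ai-α4KO library reached the lowest Control library. The log2 fold change was -1.38 (SE 0.25, adjusted p = 0.000651, edgeR). In BAT the Control libraries were close together at 395, 448, 407, 369 and 383 CPM, and Ai-α4KO libraries held 175, 129, 116, 128 and 113 CPM. The difference in BAT was -1.63 (SE 0.13, adjusted p = 6.57e-07, edgeR), and Ai-α4KO library 1 was the highest of its group. The table counts the gene as a whole, so transcripts from its different starts cannot be told apart.

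RefSeq (GRCm38.p6) gives 3 transcript starts for Pparg. The 250 bases before start 3 are shown because this start, which lies 60845 bases inside the gene, is the one of the 3 whose upstream bases hold the letters that C/EBP proteins bind. The stretch lies at chr6:115421816-115422065 on the forward strand, within an intron of Pparg in GENCODE vM21. Capitals mark matches on either strand to the C/EBP core TTNNGCAA and to the CCAAT box.
Pparg start 3: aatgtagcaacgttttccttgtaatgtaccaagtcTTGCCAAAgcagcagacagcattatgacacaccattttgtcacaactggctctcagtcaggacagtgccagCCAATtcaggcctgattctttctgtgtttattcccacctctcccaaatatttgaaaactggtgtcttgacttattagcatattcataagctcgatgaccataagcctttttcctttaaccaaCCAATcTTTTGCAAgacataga
The C/EBP core occurred at 2 places, from 215 to 208 and from 16 to 9 bases before the start, and the CCAAT box ran from 144 to 140 and from 22 to 18 bases before it. Of 32851 upstream stretches of the same length in RefSeq, 9.56% held the C/EBP core and 33.8% the CCAAT box. Among the 14 stretches found for 9 of the factors (Cebpd had none in the table), the core was in this one only. GC content was 40.8% here and 82.4% before start 1 of Pparg, where the median of all stretches was 52.4%. A match of letters is a description of this stretch and does not show binding in these mice.

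PPARα is the receptor that governs fatty acid oxidation and is most active in oxidative tissue. Ppara (Entrez 19013, chromosome 15 from 85735564 to 85806851, forward strand) held 26.1, 58.1, 35.8, 42.2 and 42.6 CPM in Control iWAT and 5.97, 7.43, 3.65, 7.97 and 5.11 CPM in Ai-α4KO iWAT. The highest Ai-α4KO library was far below the lowest Control library. Its log2 fold change of -2.77 in iWAT (SE 0.26, adjusted p = 9.29e-06, edgeR), a 6.81-fold lower level, was the largest of the 10 factors, and 1.08% of all genes tested had a value as low or lower. In BAT, Control libraries held 381, 204, 363, 193 and 451 CPM, with libraries 2 and 4 the lowest, and Ai-α4KO libraries held 56.6, 38.2, 46.1, 79.3 and 60.1 CPM. The groups did not overlap, and the difference was -2.55 (SE 0.28, adjusted p = 8.51e-06, edgeR). The remaining member of the family, Ppard, which is expressed in most tissues, was not called in either tissue (log2 fold change -0.29 in iWAT and 0.04 in BAT).

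C/EBPα maintains the mature fat cell and its insulin sensitivity. Cebpa (Entrez 12606, chromosome 7 from 35119293 to 35121931, forward strand) held 707, 570.4, 574, 532 and 600.3 CPM in Control iWAT and 251, 145, 158, 240.4 and 159 CPM in Ai-α4KO iWAT. Ai-α4KO libraries 1 and 4 were the highest of their group and remained below the lowest Control library. The log2 fold change was -1.65 (SE 0.18, adjusted p = 2.24e-05, edgeR). Control BAT libraries lay within a narrow range, at 556, 598, 604, 539.8 and 558 CPM, and Ai-α4KO BAT libraries held 212, 131, 149, 149 and 177 CPM. The difference of -1.84 in BAT (SE 0.14, adjusted p = 3.96e-07, edgeR) was also without overlap.

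C/EBPβ, the early factor that inflammatory and hormonal signals activate, moved the other way. Cebpb (Entrez 12608, chromosome 2 from 167688915 to 167690432, forward strand) held 30.3, 29.3, 25.1, 35.8 and 20.2 CPM in Control iWAT and 44.9, 55.5, 68.5, 45.3 and 69.7 CPM in Ai-α4KO iWAT. All Ai-α4KO libraries were above all Control libraries, and the log2 fold change of 1.01 (SE 0.18, adjusted p = 0.000654, edgeR) stood just past the 2-fold limit. Leaving out Control iWAT library 1, 3 or 5 or Ai-α4KO iWAT library 3 or 5 took it under that limit. So did DESeq2, upper-quartile normalization and a minimum of 10 counts in every library, with no adjusted p above 0.00763 under any setting. In BAT, Control libraries held 98.5, 70.3, 62.8, 56.8 and 67.4 CPM and Ai-α4KO libraries held 101, 78.3, 121, 97.1 and 118 CPM. Control BAT library 1 lay within the Ai-α4KO range, and the difference of 0.50 was not called (SE 0.17, adjusted p = 0.0189, edgeR).

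C/EBPδ, its early partner and an acute phase factor, showed the reverse pattern of calls. Cebpd (Entrez 12609, chromosome 16 from 15887286 to 15889545, forward strand) held 11.6, 14.6, 13.4, 9.31 and 7.21 CPM in Control BAT and 32.0, 43.9, 31.1, 32.7 and 26.2 CPM in Ai-α4KO BAT. No Control library reached the lowest Ai-α4KO library, and the log2 fold change was 1.53 (SE 0.20, adjusted p = 3.36e-05, edgeR). In iWAT, Control libraries held 38.0, 31.6, 16.8, 18.3 and 22.1 CPM and Ai-α4KO libraries held 74.3, 27.5, 24.8, 26.8 and 31.8 CPM. Ai-α4KO library 1 stood far above the others, the groups overlapped, and the difference was 0.54 (SE 0.34, adjusted p = 0.2, edgeR). Without Ai-α4KO iWAT library 1 and Control iWAT libraries 1 and 4 it was 0.16 (adjusted p = 0.506, edgeR). Cebpd overlaps the opposite strand gene Spidr, and whether counting used the strand is not given in the sources used here. Macrophage markers, given above, and neutrophil markers were higher in Ai-α4KO tissue (4 of 5 neutrophil markers called in iWAT and all 5 in BAT). Neutrophil markers summed to 19.2 to 88.4 CPM in Control iWAT and 145 to 480 in Ai-α4KO iWAT, and to 11.8 to 35.1 in Control BAT and 199 to 358 in Ai-α4KO BAT. In Ai-α4KO iWAT library 1, which had the highest Cebpd, the neutrophil sum of 182 CPM and the macrophage sum of 8388 CPM were each the next to lowest of the group, while the sum of 6 progenitor and fibroblast markers, 3353 CPM, was the highest. Progenitor markers summed to 1449 to 2598 CPM in Control iWAT and 1461 to 3353 in Ai-α4KO iWAT, and to 695 to 1031 in Control BAT and 1399 to 1736 in Ai-α4KO BAT, and 1 of the 6 was called higher in each tissue. The part of those cells in the levels of Cebpb and Cebpd was not tested.

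Upstream stretches of Cebpa and Cebpb are shown side by side because these genes of 1 family moved in opposite directions in iWAT. Cebpa lies behind chr7:35119043-35119292 and Cebpb behind chr2:167688665-167688914, both on the forward strand of GRCm38.p6, and each stretch ends just before the start given by the table. Neither holds an exon in GENCODE vM21, though that of Cebpb overlaps the gene Tmem189 and that of Cebpa overlaps Gm45091. Capitals mark the TATA box TATAAA in Cebpa and the GC box GGGCGG in Cebpb, searched on both strands.
Cebpa: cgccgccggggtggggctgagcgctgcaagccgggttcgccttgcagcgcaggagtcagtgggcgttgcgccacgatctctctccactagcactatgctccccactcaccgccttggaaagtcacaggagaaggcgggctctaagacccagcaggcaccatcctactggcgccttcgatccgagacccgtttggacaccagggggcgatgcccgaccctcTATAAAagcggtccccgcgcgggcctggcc
Cebpb: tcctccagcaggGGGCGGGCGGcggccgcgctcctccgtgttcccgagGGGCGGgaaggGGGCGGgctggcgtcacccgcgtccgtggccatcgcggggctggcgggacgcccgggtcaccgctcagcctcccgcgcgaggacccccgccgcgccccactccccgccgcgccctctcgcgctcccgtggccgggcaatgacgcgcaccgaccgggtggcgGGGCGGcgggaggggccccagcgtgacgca
The TATA box stood from 30 to 25 bases before the start of Cebpa, a letter match found in 12.4% of all stretches. Cebpb held 5 GC boxes, of which the pair farthest from the start overlap, and 32.7% of all stretches held at least 1. GC content was 66.4% before Cebpa and 81.6% before Cebpb. Neither stretch held the C/EBP core.

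Compared per transcript length as FPKM (fragments per kilobase of transcript, scaled to the library's depth, as deposited), the makeup of the C/EBP family differed between genotypes in both tissues. Cebpa made up between 75.6% and 81.0% of the summed FPKM of Cebpa, Cebpb, Cebpd, Cebpg and Cebpe in Control iWAT and between 38.96% and 54.8% in Ai-α4KO iWAT. In BAT its share was between 65.7% and 74.1% in Control and between 31.8% and 42.2% in Ai-α4KO libraries. The share of Cebpb was between 4.70% and 8.84% in Control iWAT against 15.8% to 30.9% in Ai-α4KO iWAT, and between 13.4% and 20.2% in Control BAT against 34.5% to 45.0% in Ai-α4KO BAT. Neither share overlapped between genotypes, where the CPM of 39% of all genes in iWAT and 47.6% in BAT did not overlap. A share is not affected by how a library is scaled, but it also depends on the mix of cells, whose part was not tested. The FPKM ratio of Cebpa to Cebpb had a median of 13.2 in Control iWAT, 1.51 in Ai-α4KO iWAT, 4.90 in Control BAT and 0.882 in Ai-α4KO BAT. Cebpb was thus above Cebpa in some Ai-α4KO BAT libraries, where the ratio ran from 0.706 to 1.20. Cebpg, a partner of the other members without an activation domain of its own, was not called in either tissue (log2 fold change -0.12 in iWAT and -0.53 in BAT). Cebpe, a factor of granulocyte maturation, was called higher in both tissues but made up at most 3.30% of the family in any library.

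**Figure D2:**
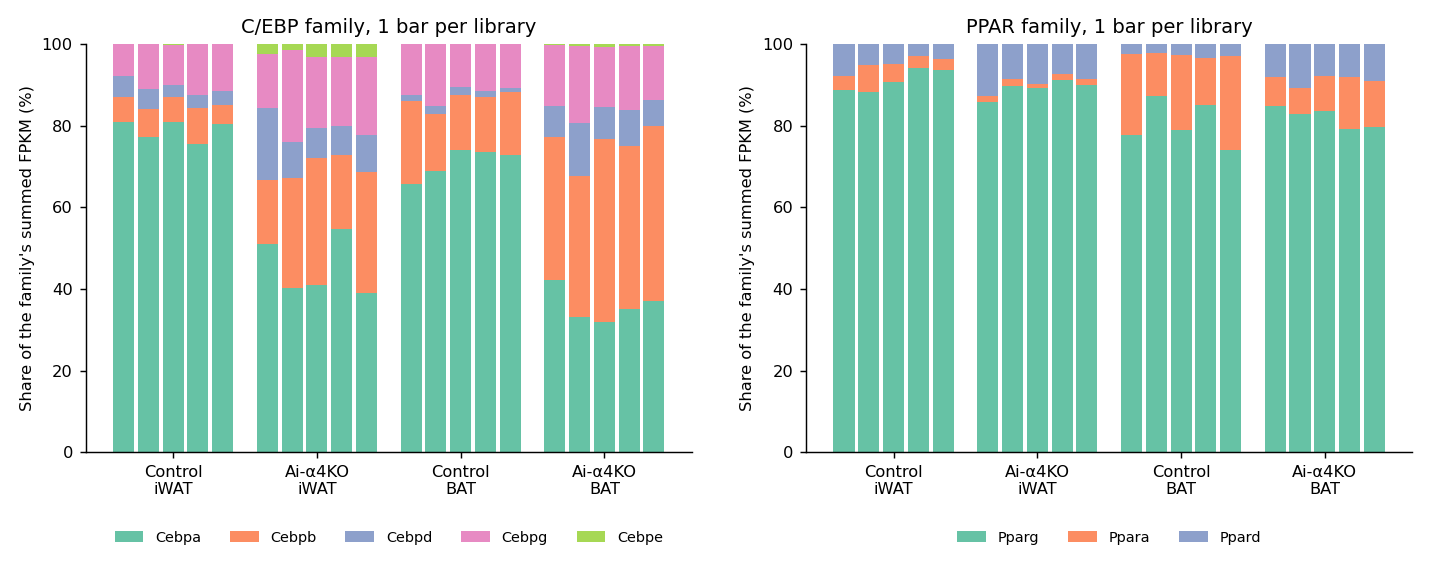
Share of each member in the summed FPKM (%) of its family, with 1 stacked bar per library in the order of the labels, for the C/EBP family (left) and the PPAR family (right). Cebpa makes up 75.6% to 81.0% of its family in Control iWAT and 38.96% to 54.8% in Ai-α4KO iWAT, while Pparg makes up at least 74.1% of its family in every library.

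Within the PPAR family, Pparg kept the largest share, between 85.9% and 94.0% in iWAT libraries of either genotype and between 74.1% and 87.4% in BAT. The share of Ppara was between 2.71% and 6.57% in Control iWAT and between 1.08% and 1.66% in Ai-α4KO iWAT, without overlap. In BAT it was between 10.5% and 23.0% in Control and between 6.47% and 12.9% in Ai-α4KO libraries, which overlapped. Ppard made up 2.96% to 7.83% in Control iWAT and 7.32% to 12.7% in Ai-α4KO iWAT, and 2.12% to 3.33% in Control BAT and 7.81% to 10.7% in Ai-α4KO BAT.

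RXRα is the common partner of PPARγ, PPARα and LXRα. Rxra (Entrez 20181, chromosome 2 from 27677201 to 27763319, forward strand) held 182, 144, 161, 117 and 169 CPM in Control iWAT and 98.1, 69.5, 65.1, 81.9 and 67.1 CPM in Ai-α4KO iWAT, where library 1 was the highest. The groups did not overlap, and the log2 fold change of -1.02 (SE 0.15, adjusted p = 0.0002, edgeR) was close to the 2-fold limit. It was under that limit without Control library 5, without Ai-α4KO library 2, 3 or 5, with library sizes not adjusted by TMM (-0.90) and with limma on log2(FPKM + 1) (-0.84) or log2(FPKM + 0.1) (-0.89). In BAT the 63.3, 66.5, 86.7, 95.7 and 89.8 CPM of Control libraries overlapped with the 70.5, 73.0, 54.9, 78.4 and 59.3 CPM of Ai-α4KO libraries. The difference of -0.30 in BAT was not called (SE 0.15, adjusted p = 0.0955, edgeR). Rxrb, a paralog found in most cells, was called lower in BAT (-1.05) and not in iWAT (-0.48). Rxra made up between 51.6% and 59.7% of the RXR family's summed FPKM in Control iWAT and between 45.6% and 48.7% in Ai-α4KO iWAT, and between 22.9% and 35.2% in Control BAT and between 33.7% and 43.3% in Ai-α4KO BAT.

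LXRα senses oxysterols and drives cholesterol efflux and fatty acid synthesis, in adipocytes and in macrophages. Nr1h3 (Entrez 22259, chromosome 2 from 91184061 to 91195116, reverse strand) held 93.4, 76.1, 101, 82.3 and 99.8 CPM in Control iWAT and 65.6, 55.9, 51.9, 66.9 and 47.9 CPM in Ai-α4KO iWAT. The groups did not overlap, but the log2 fold change of -0.66 (SE 0.12, adjusted p = 0.000946, edgeR) was under 2-fold. In BAT, 96.3, 65.6, 75.4, 67.2 and 87.6 CPM in Control stood against 64.9, 54.3, 50.6, 48.8 and 64.1 CPM in Ai-α4KO libraries, whose highest value was just below the lowest Control value. That difference was -0.51 (SE 0.14, adjusted p = 0.00656, edgeR), also under 2-fold. With the skeletal muscle marker score as a covariate it was -0.24 (adjusted p = 0.321, edgeR). Muscle marker sums did not overlap between the genotypes in BAT, so this fit cannot tell muscle and genotype apart.

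KLF15 is a late adipogenic factor that raises Slc2a4, the insulin-responsive glucose transporter gene, and amino acid catabolism. Klf15 (Entrez 66277, chromosome 6 from 90462626 to 90475209, forward strand) held 126, 106, 126, 80.0 and 99.8 CPM in Control iWAT and 31.2, 22.4, 13.6, 21.8 and 15.02 CPM in Ai-α4KO iWAT. No Ai-α4KO library came near the lowest Control library, and the log2 fold change was -2.37 (SE 0.23, adjusted p = 1.25e-05, edgeR). In BAT it held 69.7, 81.4, 89.3, 117 and 67.8 CPM in Control and 34.3, 27.8, 44.2, 41.3 and 19.96 CPM in Ai-α4KO libraries. That difference was -1.38 (SE 0.22, adjusted p = 0.000182, edgeR), without overlap.

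ERRα works with the coactivators PGC-1α and PGC-1β to raise genes of the citrate cycle and respiratory chain. Esrra (Entrez 26379, chromosome 19 from 6910977 to 6921808, reverse strand) held 164, 116, 158, 137 and 159 CPM in Control BAT and 47.7, 48.1, 49.5, 61.3 and 71.6 CPM in Ai-α4KO BAT. The groups were far apart, with a log2 fold change of -1.44 (SE 0.15, adjusted p = 7.17e-06, edgeR). In iWAT, Control libraries held 59.3, 41.8, 51.1, 49.4 and 61.9 CPM and Ai-α4KO libraries held 38.8, 23.8, 21.8, 26.8 and 21.3 CPM, of which library 1 was the highest. The difference of -0.996 (SE 0.18, adjusted p = 0.000686, edgeR) was without overlap and missed the 2-fold limit by less than its error. Leaving out any of Control libraries 1 to 4, or Ai-α4KO library 1, took it past the limit. So did DESeq2, upper-quartile normalization, a minimum of 10 counts in every library and the replicate number as a block. Esrra overlaps the opposite strand gene Trmt112.

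EBF1 is a factor of both adipocytes and B cells. Ebf1 (Entrez 13591, chromosome 11 from 44618100 to 45008096, forward strand) held 116, 131, 121, 95.3 and 112 CPM in Control iWAT. Libraries 1 and 4, which carried the B cell markers, were not the highest of these. The part of B cells in these levels was not tested. Ai-α4KO iWAT libraries held 60.1, 53.9, 65.4, 83.6 and 84.0 CPM, all below Control, with a log2 fold change of -0.73 under 2-fold (SE 0.14, adjusted p = 0.0011, edgeR). In BAT it ranged widely among Control libraries, at 109, 210.4, 96.4, 154 and 70.0 CPM, and Ai-α4KO libraries held 66.5, 52.2, 60.4, 40.4 and 48.8 CPM. The highest Ai-α4KO library lay just under the lowest Control library, and the difference was -1.28 (SE 0.26, adjusted p = 0.00093, edgeR). With the skeletal muscle marker score as a covariate it was -1.32 with an adjusted p of 0.0145 (edgeR), so this call was lost. The other 5 factors lower in BAT and Cebpd kept theirs. Muscle marker sums did not overlap between the genotypes in BAT, so muscle and genotype cannot be told apart by calls kept or lost in this fit. The Ebf1 call was also lost with limma on log2(FPKM + 1), at -0.87, and on log2(FPKM + 0.1), at -0.93, for lack of a 2-fold difference. Its relatives Ebf2, which specifies brown fat precursors, and Ebf3 were lower in both tissues, at -1.18 and -1.32 in iWAT and -2.06 and -1.46 in BAT.

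**Figure D3:**
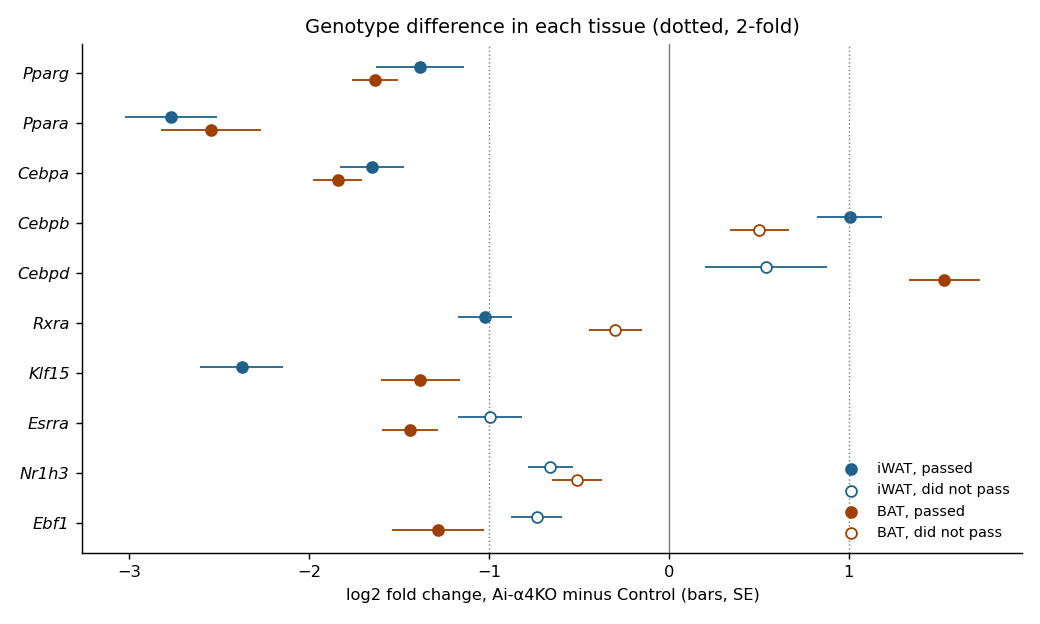
Log2 fold change of each factor, Ai-α4KO minus Control, in iWAT and BAT with libraries scaled to all genes (points, edgeR estimate; bars, SE; filled, called at an adjusted p below 0.01 and 2-fold; dotted lines, 2-fold). Ppara lies at -2.77 in iWAT and -2.55 in BAT, and Cebpb and Cebpd alone lie to the right of 0.

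Whether the genotype difference itself differed between tissues was tested as an interaction over all 20 libraries. None of the 10 factors passed an adjusted p of 0.01 in edgeR, where 4.86% of all genes did, while 3 had an unadjusted p under 0.05 and DESeq2 called 1. Rxra came closest, with a difference that was 0.76 higher in BAT (SE 0.21, adjusted p = 0.0237, edgeR), followed by Klf15 at 1.03 (SE 0.33, adjusted p = 0.0414) and Cebpd at 1.02 (SE 0.42, adjusted p = 0.102). Without Ai-α4KO iWAT library 1 these 3 passed. Without that library and Control iWAT libraries 1 and 4, Rxra (1.02, adjusted p = 0.00459) and Cebpd (1.46, adjusted p = 0.00522) passed and Klf15 (1.38, adjusted p = 0.0115) did not. Cebpb, called in iWAT and not in BAT, differed by -0.47 (95% interval -1.001 to 0.051). For Pparg the interval of the difference was -0.81 to 0.38, for Cebpa -0.62 to 0.31 and for Ppara -0.53 to 1.04.

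Between the tissues of Control mice, 4 of the 10 factors differed by the rule, where 21.9% of all genes tested did. Ppara was 7.62-fold higher in BAT (log2 2.93, SE 0.29, adjusted p = 2.00e-05, edgeR), with no library of iWAT near the lowest of BAT. Esrra was higher in BAT by 1.45 (SE 0.14, adjusted p = 1.62e-05) and Cebpb by 1.31 (SE 0.18, adjusted p = 0.000133). Cebpd differed by -1.22 (SE 0.26, adjusted p = 0.0025), so it was lower in BAT. Markers of other cells were lower in Control BAT as well, with 9 of 9 macrophage markers (median -2.56), 5 of 6 progenitor markers (median -1.54), 2 of 5 neutrophil markers, 5 of 5 T cell and 4 of 4 B cell markers called, although the B and T cell sums of Control iWAT were high in libraries 1 and 4 alone. Of 6 endothelial markers 2 were called higher in Control BAT and none lower (median 0.64), and the 8 skeletal muscle markers had a median of 2.03 with none called. The part of these cells in the differences was not tested. Rxra, at -0.98 (adjusted p = 0.000358), was just under 2-fold. It passed the rule in 8 of 20 alternatives, among them both limma fits and upper-quartile normalization. Cebpa differed by -0.10 (95% interval -0.32 to 0.13), Ebf1 by 0.11 (-0.42 to 0.64) and Pparg by 0.59 (0.12 to 1.06, adjusted p = 0.039). Between Ai-α4KO BAT and Ai-α4KO iWAT, 2 factors differed, Ppara by 3.27 (SE 0.26, adjusted p = 3.64e-05) and Esrra by 1.12 (SE 0.20, adjusted p = 0.00155), where 11.5% of all genes did. Cebpd differed there by -0.12 (95% interval -0.77 to 0.54) and Cebpb by 0.92 (adjusted p = 0.00193), under 2-fold. The 8 skeletal muscle markers had a median of 4.84 there with none called. Their sums were 13369 to 45450 CPM in Ai-α4KO BAT and 5.46 to 5267 in Ai-α4KO iWAT. Of 9 macrophage markers 1 was called lower in Ai-α4KO BAT, as were 2 of 6 progenitor markers. The part of these cells was not tested. These comparisons share libraries with those between genotypes.

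In order of FPKM, Cebpa led in Control iWAT with a median of 199, followed by Pparg at 95.5, Klf15 at 42.5, Nr1h3 at 40.1, Rxra at 24.2, Esrra at 20.4, Ebf1 at 18.9, Cebpb at 17.8, Cebpd at 8.83 and Ppara at 5.11. Of neighbours in that order, Pparg and Klf15 and also Nr1h3 and Rxra did not overlap, and the other neighbours did. In Ai-α4KO iWAT, Cebpa (59.0) and Pparg (49.2) stayed first, Cebpb came next at 35.6 and Klf15 stood just above the lowest factor at 9.31. Ppara was the lowest at 0.793. In Control BAT, Cebpa (167) and Pparg (155) were followed by Esrra at 53.5 and Ppara at 36.5, and Cebpd was the lowest at 4.03. In Ai-α4KO BAT, Cebpb (63.5), Pparg (54.4) and Cebpa (50.4) overlapped in range, and Ppara was the lowest at 7.14.

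To set the factors beside other genes of fat cells, libraries were also scaled to the geometric mean count of the 12 adipocyte markers, 6 of which are themselves listed as PPARγ targets. This shifted the median log2 fold change of all genes to 1.86 in iWAT and 1.84 in BAT. On this scale none of the 10 factors was lower in either tissue, where 0.582% of all genes in iWAT and 0.495% in BAT were, and 4 were higher in each, against 78.9% and 81.6% of all genes. Cebpa differed by 0.13 in iWAT (95% interval -0.28 to 0.53, adjusted p = 0.534, edgeR) and by 0.000888 in BAT (95% interval -0.38 to 0.38). For Pparg the difference was 0.44 (adjusted p = 0.122) in iWAT and, in BAT, 0.20 (adjusted p = 0.277). Ppara remained below the markers, at -0.97 in iWAT (SE 0.26, adjusted p = 0.00259), short of 2-fold, and at -0.65 in BAT (SE 0.27, adjusted p = 0.0329). Without single libraries its value in iWAT ran from -1.14 to -0.80, and it passed the rule when Control iWAT library 1, 3 or 5 or Ai-α4KO iWAT library 2 was left out. With limma on log2(FPKM + 1), a pseudocount above the median FPKM of Ppara in Ai-α4KO iWAT (0.793), it was -0.036 (adjusted p = 0.885), and on log2(FPKM + 0.1) it was -0.81 (adjusted p = 0.0106). Klf15 was at -0.60 (adjusted p = 0.0143) in iWAT, and at 0.49 (adjusted p = 0.07) in BAT.

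The factors called higher on the marker scale in iWAT were Cebpb (2.90), Cebpd (2.28), Nr1h3 (1.17) and Ebf1 (1.12). Without Ai-α4KO iWAT library 5 the Ebf1 value was 0.97, under 2-fold. In BAT they were Cebpb (2.38), Cebpd (3.40), Rxra (1.58) and Nr1h3 (1.36). Cebpb and Cebpd exceeded the median shift of all genes in both tissues, whereas the values of Nr1h3, Ebf1 and Rxra did not reach it. These genes are also expressed by other cells of the tissue, and the part of those cells was not tested.

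**Figure D4:**
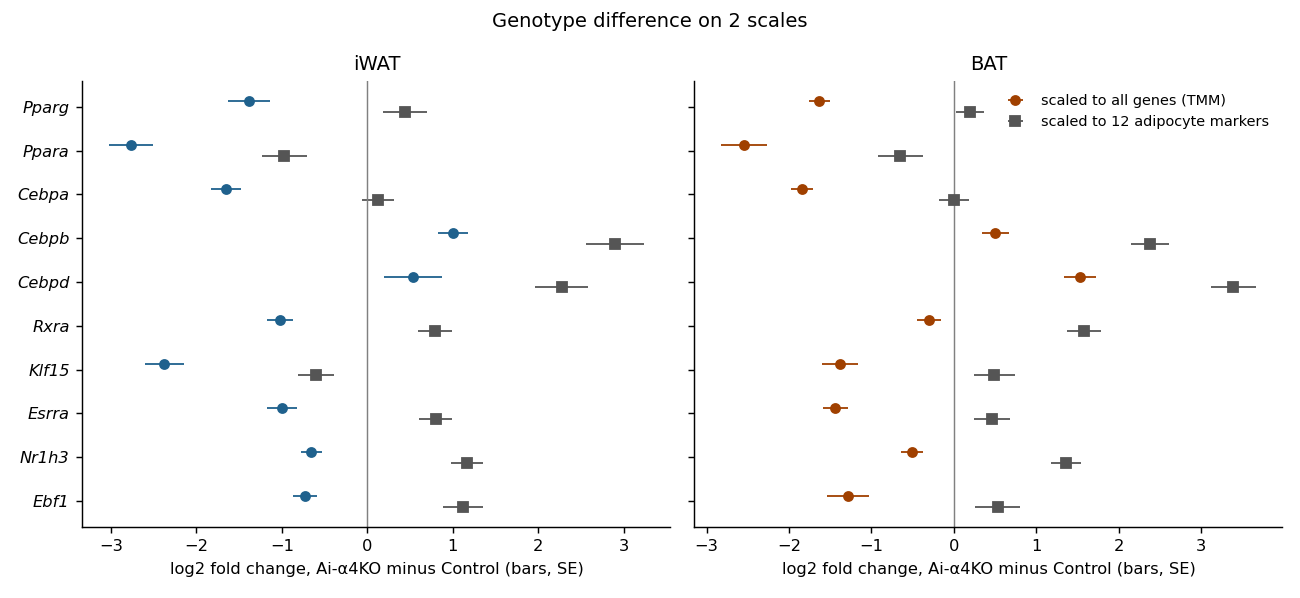
Log2 fold change of each factor, Ai-α4KO minus Control, in iWAT (left) and BAT (right), with libraries scaled to all genes by TMM (circles) or to 12 adipocyte markers (squares; bars, SE). Pparg moves from -1.38 to 0.44 in iWAT and Cebpa from -1.84 to 0.000888 in BAT, while Ppara stays left of 0 on both scales.

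Known targets and partners of the factors were described by lists. Counts are with libraries scaled to all genes, where 10.7% of all genes were lower and 11.3% higher in iWAT and 13.3% and 18.2% in BAT, unless the adipocyte marker scale is named. Of 15 PPARγ targets, 11 were lower and 1 was higher in each tissue, and their log2 fold changes had a median of -1.59 for iWAT and -1.64 for BAT. Pck1, the gene of the glyceroneogenic enzyme PEPCK, was among the lower ones (-3.42 in iWAT, -2.91 in BAT), as was Adipoq, the adiponectin gene (-2.21 and -2.15). Gyk, glycerol kinase, was the one that rose (1.99 and 1.15). Of 12 PPARα targets, 7 were lower and 1 higher in iWAT (median -1.38) and 9 were lower and 1 higher in BAT (median -1.90). Fgf21, a hormone gene also induced by cell stress, was the higher one, with at most 0.318 CPM in Control iWAT against 6.68 to 15.4 in Ai-α4KO iWAT and at most 0.41 in Control BAT against 2.88 to 15.2 in Ai-α4KO BAT, while Ehhadh, a peroxisomal oxidation enzyme, was at -2.25 and -2.53. All 7 ERRα targets were lower in BAT (median -1.87) and 6 of 7 in iWAT (median -1.57).

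Of 4 KLF15 targets, 3 were lower in iWAT and all 4 in BAT. Prodh, proline dehydrogenase, was at -2.77 in iWAT and -2.83 in BAT, and Slc2a4 at -2.85 and -1.64. LXR targets were mixed, with 2 of 9 lower and 1 higher in iWAT and 1 lower and 2 higher in BAT. Scd1, a fatty acid desaturase, was at -2.34 and -1.34, and Abcg1, a cholesterol exporter abundant in macrophages, at 1.28 and 1.86. Among 8 acute phase and inflammatory targets of C/EBPβ and C/EBPδ, 7 were higher in each tissue, with a median of 4.42 in iWAT and 5.13 in BAT. Il6 was at most 0.155 CPM in any Control library and 14.7 to 63.9 CPM in Ai-α4KO libraries, and Lcn2, the lipocalin of innate defence, rose by 4.95 in iWAT and 7.12 in BAT. Orm1 was not called in either tissue (-0.83 and 0.21). The part of macrophages and neutrophils in the levels of these genes was not tested. On the adipocyte marker scale the lower calls of the target lists were mostly lost. Of the PPARγ targets 3 were lower and 4 higher in iWAT (median 0.24) and 1 was lower and 3 were higher in BAT (median 0.27), where 0.582% and 0.495% of all genes were lower and 78.9% and 81.6% higher. None of the PPARα, ERRα or LXR targets was lower in either tissue on that scale. Higher on it were 1 of 12 PPARα, 1 of 7 ERRα and 7 of 9 LXR targets in iWAT and 2, 0 and 7 in BAT. Of the 4 KLF15 targets 1 was lower and 1 higher in iWAT, and none was called in BAT. All 8 acute phase and inflammatory targets were higher on it in both tissues. Acadm stands in both the PPARα and ERRα lists and Slc2a4 in both the PPARγ and KLF15 lists, and 6 PPARγ targets are among the adipocyte markers.

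Of 17 coactivators and corepressors, 4 were lower in iWAT and 2 in BAT, with none higher and medians of -0.25 and -0.26. Ppargc1b and Prdm16, a coregulator of brown fat, were lower in both tissues, at -1.81 and -1.35 in iWAT and -2.75 and -1.65 in BAT. Ppargc1a was lower in iWAT (-1.998) and at -0.15 in BAT, where it was not called, and the interaction passed the test (adjusted p = 0.00266, edgeR). Among 12 other promoters of adipogenesis, 5 were lower and 1 higher in iWAT and 2 lower and 1 higher in BAT. Mlxipl, the carbohydrate response factor ChREBP, was lower in both (-2.13 and -2.04), and Egr2, an early growth response factor, was higher in both (2.39 and 3.51). Of the restrainers of adipogenesis, 1 of 10 was lower in iWAT and 2 of 9 were lower and 1 higher in BAT. Foxo1, a target of insulin signaling, was lower in both (-1.37 and -1.61). Sox9, a progenitor factor, was higher in BAT (2.498).

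Of the family relatives of the 10 factors, 2 were higher and 3 lower of 22 in iWAT and 2 were higher and 4 lower of 23 in BAT, close to the general rate of calls or, for the higher ones in BAT, below it. Klf9, a glucocorticoid-induced relative of Klf15, was lower in both (-1.10 and -1.18). Cebpe, called higher in both, was between 0.311 and 0.488 CPM in Control iWAT and between 2.53 and 6.66 in Ai-α4KO iWAT, and at most 0.176 in Control BAT and between 0.84 and 1.69 in Ai-α4KO BAT. Klf6, a stress-responsive relative, was called higher in iWAT (1.10) and reached 0.88 in BAT. On the adipocyte marker scale none of the cofactors, other promoters, restrainers or family relatives was lower in either tissue. Higher on that scale were 13 of 17 cofactors, 7 of 12 other promoters, 8 of 10 restrainers and 17 of 22 relatives in iWAT, and 14 of 17, 8 of 12, 7 of 9 and 17 of 23 in BAT, where 78.9% of all genes in iWAT and 81.6% in BAT were higher.

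The genes whose level followed each factor most closely over the 20 libraries were ranked by the root mean square difference of centred log2 CPM among 15229 other genes. Cebpa was followed by Csad, which encodes an enzyme of taurine synthesis, at 0.20 where its own spread was 0.91, and Pparg by Ppp2r5a, a regulatory subunit of the phosphatase PP2A, at 0.22 where its own spread was 0.84. Nr1h3 was nearest to Zfp524 (0.15, own spread 0.34), Esrra to Mrpl34, a mitochondrial ribosomal protein gene (0.21, own spread 0.92), and Rxra to Extl3 (0.21, own spread 0.51). Ppara was nearest to Gpd2, mitochondrial glycerol phosphate dehydrogenase (0.49, own spread 2.06), Klf15 to Echdc2 (0.32, own spread 1.05) and Ebf1 to Bag4 (0.26, own spread 0.60). Uchl3 was nearest to Cebpb (0.34, own spread 0.73) and Lum, a matrix protein gene of fibroblasts, to Cebpd (0.37, own spread 0.78). The 20 libraries share 4 groups, so these distances mostly describe the pattern over groups.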

How the data were processed

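RNA of 20 libraries was sequenced for the authors by Takara Bio as stranded, poly(A)-selected paired-end reads of 150 bp. The submitters' processing notes name bcl2fastq 2, STAR 2.5.3a and mm10; the counter and its annotation are not given in the sources used here. The deposited table holds estimated counts per gene, of which 76.7% of nonzero values were whole (within 1e-06 of a whole number), and FPKM values, which the authors made by dividing by transcript length and depth. Estimated counts were rounded and tested with edgeR 4.0.16 in R 4.3.3 (filterByExpr, TMM, quasi-likelihood test, Benjamini-Hochberg over all genes), separately for each comparison and over all 20 libraries for the interaction. SE was taken as the log2 fold change divided by the square root of F, and 95% intervals used the t distribution with the degrees of freedom of the test. CPM used TMM factors of all 20 libraries. FPKM served for comparing genes with each other. No 2 libraries of a group agreed within sampling noise (lowest chi-square per degree of freedom 29.9). The precision is limited by 5 libraries per group. The test was tried on simulated counts.

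The members and all lists were chosen with earlier results of these data known. Named genes are Igbp1, the 10 factors, the genes of the fixed lists (relatives, cofactors, regulators, targets, cell type markers), and for each factor the gene nearest to it. Alternatives were DESeq2 1.42.0, other normalizations and filters, an adjusted p of 0.05, limma 3.58.1 on log2(FPKM + 1) and log2(FPKM + 0.1), a replicate block, 1 fit of all libraries, a muscle marker covariate and leaving out libraries. Leaving out Control iWAT libraries 1 and 4 together with Ai-α4KO iWAT library 1, and the muscle covariate in the interaction, were chosen after seeing the data, as were the counts of factors higher on the adipocyte marker scale. Upstream sequences came from RefSeq, with 14 stretches for 9 of the 10 factors.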

Additional observations from a re-analysis of the deposited data

Results flagged for a closer look

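Cebpd in Ai-α4KO iWAT library 1 was at 74.3 CPM, far above the other 4 libraries of its group, at 24.8 to 31.8 CPM. Its gap to the nearest library was 0.773 of the group's range, above Dixon's limit of 0.71 for 5 libraries. It was the only one of 40 combinations of gene and group to pass, where chance passes about 1 in 20. The same library carried skeletal muscle markers at a sum of 5267 CPM, and the part of that tissue in the value was not tested.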

How the results depend on the processing

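Of 1490 values of single factors under the alternatives, 1434 kept their side of the threshold, 22 lost a call and 34 gained one. Of the 1434, 30 changed sign, all of values that were not called (lowest adjusted p = 0.117), and 10 of these were Cebpa in BAT on the adipocyte marker scale and 8 Nr1h3 between the Ai-α4KO tissues. The count of factors higher in iWAT (1, Cebpb) was 0 under DESeq2, upper-quartile normalization and a minimum of 10 counts in every library, and 0 to 1 when single libraries were left out. The count with an interaction (0) was 1 under DESeq2 and with the minimum of 10 counts (Rxra), 2 at an adjusted p of 0.05, 2 without Control iWAT libraries 1 and 4 and Ai-α4KO iWAT library 1, and 0 to 3 without single libraries. The count differing between the Ai-α4KO tissues (2) was 1 without TMM factors and with limma on log2(FPKM + 1) and log2(FPKM + 0.1), where Esrra was lost, and 2 to 3 without single libraries. The count lower in iWAT on the adipocyte marker scale (0) was 1 without Control iWAT libraries 1 and 4 and 0 to 1 without single libraries. The count lower in iWAT (5) ran from 4 to 6 over all alternatives and that in BAT (6) from 5 to 6, with 5 under both limma fits and the muscle covariate, where Ebf1 was lost. Cebpb, Rxra and Esrra lay near the 2-fold limit in iWAT. The cause of the other differences was not tested.

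The labels do not say whether replicate numbers pair the libraries. Deviations of same-numbered libraries correlated at -0.45 to 0.24, which cannot decide this with 5 libraries per group. With the replicate number as a block, 6 factors were lower in iWAT, Esrra being the added one.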
